A study of Mus musculus with 14 samples.

Results

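Pulmonary surfactant and the alveolar type II cell were followed here through 10 genes in whole mouse lung: Sftpa1, Sftpb, Sftpc, Sftpd, Abca3, Lamp3, Lpcat1, Napsa, Slc34a2 and Etv5. A gene was read from a probe set assigned to that gene alone, and where several existed the probe set with the highest mean over the 14 arrays was used and the others served as a check. By this rule 9 of the 10 genes had a value, among 18194 genes with a probe set. All 9 were among the 11360 genes tested, that is, above their array's median on 3 or more of the 14 arrays. Lamp3 shared its probe set with Ppid, so no value is given for it.

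The study measured the lung's response to mechanical ventilation and to pre-B-cell colony-enhancing factor (PBEF, the product of Nampt). Control was 4 arrays from lungs given PBS, of mice aged 18-22 weeks. VALI was 4 arrays from mice of 18-22 weeks ventilated for 4 hours. PBEF+/- was 3 unventilated arrays, also from mice of 18-22 weeks, and VILI PBEF+/- was 3 arrays ventilated for 4 hours, from mice of 8-12 weeks. Age therefore cannot be told apart from group wherever VILI PBEF+/- is compared. The sample labels give a tidal volume of 40 ml/kg and the series text 30 ml/kg. Whether PBEF+/- is a heterozygous genotype or the protein given is not settled by the labels, so the group names are kept as they stand. No strain is named, and nothing states that the arrays are separate animals, so each p-value reflects only how far these samples spread, which may be technical.

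Type II cells are the cuboidal cells of the alveolus that make, store and recycle surfactant, the lipid and protein film that lowers surface tension at the air-liquid interface. The film's lipid is mostly disaturated phosphatidylcholine. It is packed with the small hydrophobic proteins SP-B and SP-C into lamellar bodies and released by exocytosis, while the collectins SP-A and SP-D bind microbes and help to turn the film over. The same cells are progenitors of alveolar type I cells, and loss of surfactant function is a known part of ventilator-induced lung injury.

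The transcription factors NKX2-1, FOXA1 and FOXA2 and the ETS factor ETV5 are known regulators of surfactant genes, and the start sites of the genes show where such factors can bind. Windows of 250 bases upstream of the start (RefSeq, GRCm38.p6) were found for 7 of the 10 genes and searched on both strands. The motifs were CTCAAG, a stretch with the CAAG core of NKX2-1 sites, TGTTTAC, a FOX core, and CCGGAA, an ETS core. CAAG alone was not searched for. A match is in capitals in the windows that follow, all written 5′ to 3′ along the gene's own strand. No window of these genes held more than 1 of the 3 motifs, so matches did not overlap. Sftpa1 (chr14:41131538-41131787, plus strand) and Sftpb (chr6:72304360-72304609, plus strand) are shown as the genes with CTCAAG, with 1 and 2 matches. Abca3 (chr17:24351773-24352022, plus strand) is shown for its ETS core. Etv5 (chr16:22439571-22439820, minus strand, the first of its 2 windows) is shown for its FOX core, read on the opposite strand. Lpcat1 (chr13:73466981-73467230, plus strand) is shown because its values differed most between groups, and it held none of the 3 motifs.
Sftpa1: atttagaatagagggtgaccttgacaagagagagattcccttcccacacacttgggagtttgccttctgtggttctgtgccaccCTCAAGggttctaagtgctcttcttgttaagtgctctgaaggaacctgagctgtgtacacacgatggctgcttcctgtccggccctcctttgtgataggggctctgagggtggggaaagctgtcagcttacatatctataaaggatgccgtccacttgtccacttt
Sftpb: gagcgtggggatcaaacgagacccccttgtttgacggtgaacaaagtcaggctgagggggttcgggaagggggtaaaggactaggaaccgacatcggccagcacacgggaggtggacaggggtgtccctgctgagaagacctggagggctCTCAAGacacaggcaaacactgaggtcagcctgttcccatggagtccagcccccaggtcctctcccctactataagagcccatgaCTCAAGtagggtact
Abca3: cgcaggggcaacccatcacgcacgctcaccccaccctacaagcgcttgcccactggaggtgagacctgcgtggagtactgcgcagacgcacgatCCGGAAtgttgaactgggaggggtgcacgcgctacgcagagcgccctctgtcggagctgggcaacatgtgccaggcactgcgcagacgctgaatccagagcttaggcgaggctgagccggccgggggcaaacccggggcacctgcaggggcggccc
Etv5: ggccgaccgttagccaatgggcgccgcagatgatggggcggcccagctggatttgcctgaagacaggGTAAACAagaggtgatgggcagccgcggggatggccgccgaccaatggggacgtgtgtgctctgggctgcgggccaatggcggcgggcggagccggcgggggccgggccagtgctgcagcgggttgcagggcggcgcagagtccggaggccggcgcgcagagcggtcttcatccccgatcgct
Lpcat1: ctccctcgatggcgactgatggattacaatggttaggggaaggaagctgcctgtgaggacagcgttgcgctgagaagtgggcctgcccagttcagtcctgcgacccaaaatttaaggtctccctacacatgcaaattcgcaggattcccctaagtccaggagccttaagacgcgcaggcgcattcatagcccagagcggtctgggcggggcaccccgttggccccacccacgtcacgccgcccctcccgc
CTCAAG was present in 2 of the 7 genes with a window and in 13.3% of all 32851 promoter windows of the same length. TGTTTAC was present in 2 of the 7, Etv5 and Lamp3, and in 3.17% of all windows. CCGGAA was present in 1 of the 7 and in 12% of all windows.

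Array medians lay between 4.60 and 4.75 on the log2 scale, and no pair of arrays was identical. The number of arrays limits the precision. Il6, the cytokine interleukin-6, read 2.09 to 2.45 in Control. In VALI it read 9.60, 9.84, 9.85 and 2.78, and in PBEF+/- it read 2.10, 2.56 and 10.87. The VILI PBEF+/- arrays read 12.75, 12.33 and 10.32. VALI replicate 4 and PBEF+/- replicate 3, as labelled, thus went against the rest of their groups, and every comparison is given for all 14 arrays and for the 12 arrays without them. The 2 arrays were chosen by their own Il6 values, so p-values over 12 arrays depend on that choice. Over the 12 arrays VALI had 3 arrays and PBEF+/- had 2, its replicates 1 and 2. Control replicate 1 also stood apart, in the type II genes themselves. Differences and p-values of these genes without it therefore depend on that choice. The count of arrays with Xist above Eif2s3y was 2 of 4 in Control, 3 of 4 in VALI, 2 of 3 in PBEF+/- and 3 of 3 in VILI PBEF+/-, so animals of both sexes appear unevenly spread over the groups.

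Over the groups as labelled, none of the 9 genes differed past an adjusted p of 0.05 in any of the 5 comparisons of the design (limma). In the same fits 0% of the 11360 genes were called in VALI against Control, in PBEF+/- against Control, in VILI PBEF+/- against PBEF+/-, in VILI PBEF+/- against VALI and in the interaction, which is the difference between the 2 ventilation differences. Those counts of 0 stood beside 2075, 938, 2355, 1191 and 634 genes at an unadjusted p under 0.05. With 12 arrays the genes called rose to 17% in VALI against Control and 26.4% in VILI PBEF+/- against PBEF+/-. They came to 0.114% in VILI PBEF+/- against VALI, 0% in PBEF+/- against Control and 0% in the interaction. Still 0 of the 9 surfactant and type II genes were called in those 5 comparisons, and the smallest adjusted p was 0.0577, for Sftpc in VALI against Control. At an unadjusted p under 0.05 there were 2 of the 9 in VALI against Control (32.5% of all genes), 1 in PBEF+/- against Control (11.1%) and 1 in VILI PBEF+/- against PBEF+/- (40.5%). There were 0 in VILI PBEF+/- against VALI (7.55%) and 0 in the interaction (10.4%). Whole-lung RNA was measured, so fewer type II cells and less RNA per cell cannot be told apart in any of these values.

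**Figure D1:**
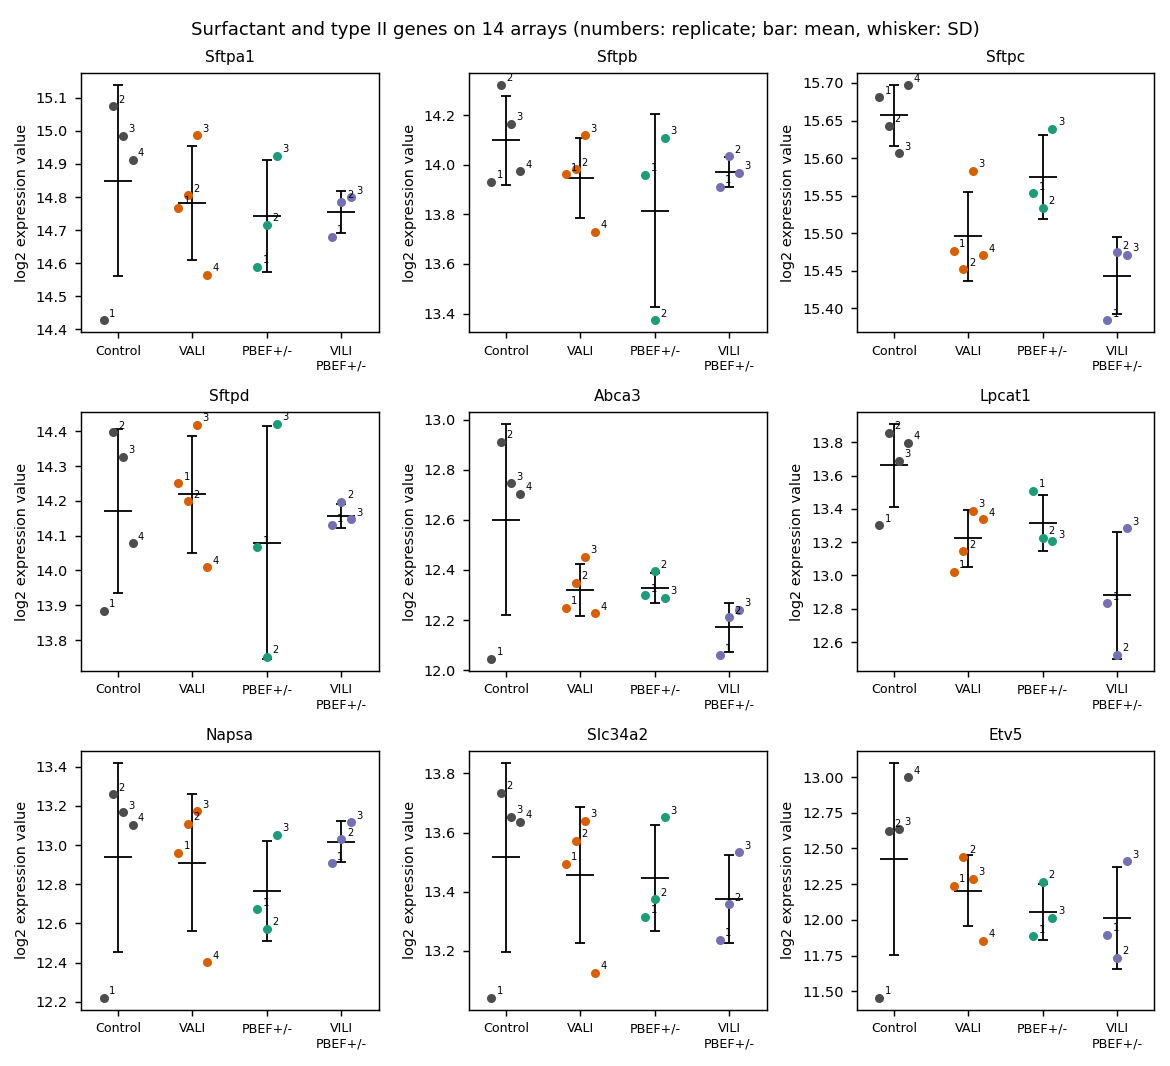
Log2 expression values (y axis, 1 panel per gene, each with its own range) of the 9 measured genes on 14 arrays in 4 groups (x axis). Points are arrays numbered by replicate, the horizontal bar is the group mean and the whisker the SD. Control replicate 1 is the lowest Control point in 8 of the 9 panels, and Sftpc is the panel in which every VALI array lies below every Control array.

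The surfactant proteins are the products that define the type II cell. Sftpc, which encodes SP-C, a small membrane protein specific to these cells, read 15.68, 15.64, 15.61 and 15.70 in Control and 15.48, 15.45, 15.58 and 15.47 in VALI. It read 15.55, 15.53 and 15.64 in PBEF+/- and 15.38, 15.47 and 15.47 in VILI PBEF+/-. As labelled, each ventilated group lay wholly below its unventilated group. Of the 2 arrays with Il6 against their labels, VALI replicate 4 read 15.47. PBEF+/- replicate 3 read 15.64, the highest of its group and inside the Control range. The separation under other labels for these 2 arrays was not tested. The differences were small: -0.16 ± 0.05 (SE) between VALI and Control (fold 0.894, adjusted p = 0.146) and -0.13 ± 0.05 between VILI PBEF+/- and PBEF+/- (fold 0.913, adjusted p = 0.213). These values lay near the top of the scale, where the highest probe set on any array read 16.1, and whether the array could still register the full size of a change there was not tested. The highest value of each array read 16.06 to 16.13 in Control and 15.95 to 16.05 in VALI. It read 16.04 to 16.12 in PBEF+/- and 15.93 to 16.15 in VILI PBEF+/-. The part of such shifts between arrays in the Sftpc differences was not tested. A second Sftpc probe set read 4.23 to 6.74 and was highest in Control replicate 1.

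Sftpb encodes SP-B, without which the surface film does not form. It read 13.93, 14.32, 14.17 and 13.97 in Control and 13.96, 13.98, 14.12 and 13.73 in VALI. It read 13.96, 13.37 and 14.11 in PBEF+/- and 13.91, 14.03 and 13.97 in VILI PBEF+/-. All groups overlapped, and the low value was PBEF+/- replicate 2. The difference between VALI and Control was -0.15 (95% interval -0.46 to 0.16), and that between VILI PBEF+/- and PBEF+/- was 0.16 (95% interval -0.20 to 0.52).

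The collectin genes Sftpa1 and Sftpd, whose products SP-A and SP-D opsonise microbes, had the smallest spans between group means. Sftpa1 read 14.43, 15.07, 14.99 and 14.91 in Control and 14.77, 14.81, 14.99 and 14.56 in VALI. It read 14.59, 14.72 and 14.93 in PBEF+/- and 14.68, 14.78 and 14.80 in VILI PBEF+/-. The Control mean was 14.85 ± 0.29 (SD, n = 4) and the VALI mean 14.78 ± 0.17 (SD, n = 4), and the 4 group means spanned 0.11. Sftpd read 13.88, 14.40, 14.33 and 14.08 in Control, 14.25, 14.20, 14.42 and 14.01 in VALI, 14.07, 13.75 and 14.42 in PBEF+/- and 14.13, 14.20 and 14.15 in VILI PBEF+/-. Its Control mean was 14.17 ± 0.24 (SD, n = 4) and its VALI mean 14.22 ± 0.17 (SD, n = 4), with a span of 0.14 over the groups. All groups overlapped for both genes. For VALI against Control as labelled, the model's confidence interval of the fold was 0.783 to 1.16 for Sftpa1 and 0.835 to 1.28 for Sftpd. These intervals reflect the spread of the labelled arrays, which may be technical, and include VALI replicate 4. They therefore do not bound an effect of ventilation that could have been missed. The second probe set of Sftpa1 ranged more widely, from 13.22 in Control replicate 1 to 14.37 in Control replicate 2.

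Lipid handling held the gene with the widest span. Lpcat1 encodes the acyltransferase that remodels phosphatidylcholine into its disaturated, surface-active form. It read 13.30, 13.86, 13.69 and 13.80 in Control and 13.02, 13.14, 13.39 and 13.34 in VALI. It read 13.51, 13.23 and 13.21 in PBEF+/- and 12.83, 12.52 and 13.28 in VILI PBEF+/-. The group means spanned 0.78, against 0.11 to 0.43 for the other 8 genes. Control was highest and VILI PBEF+/- lowest, with VALI and PBEF+/- between them, and on this probe set neighbouring groups overlapped. VALI lay below Control by -0.44 ± 0.16 (SE, fold 0.737, 95% interval 0.578 to 0.94, adjusted p = 0.199). VILI PBEF+/- lay below PBEF+/- by -0.43 ± 0.19 (SE, fold 0.74, 95% interval 0.559 to 0.98, adjusted p = 0.222).

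Of the other 4 probe sets of Lpcat1, 2 lay above the array medians, and on both the ventilated means lay below the unventilated ones. On 1424460_s_at, Control read 13.15, 13.26, 13.22 and 13.51 and VALI read 12.58, 12.63, 12.93 and 13.11. PBEF+/- read 13.22, 13.30 and 12.72 and VILI PBEF+/- read 12.37, 12.27 and 12.66. Here every VALI array lay below every Control array and every VILI PBEF+/- array below every PBEF+/- array. Of the 2 arrays with Il6 against their labels, PBEF+/- replicate 3 was the lowest of its group and VALI replicate 4 the highest of its own. With each probe set fitted singly over the 12 arrays, 2 of the 18 tested probe sets of the 9 genes were called in VALI against Control (12% of all probe sets) and 3 in VILI PBEF+/- against PBEF+/- (19.7%). The difference on this probe set was -0.57 ± 0.12 (SE, adjusted p = 0.0134) between VALI and Control and -0.83 ± 0.14 (SE, adjusted p = 0.0036) between VILI PBEF+/- and PBEF+/-. On 1451359_at the same differences were -0.67 ± 0.19 (SE, adjusted p = 0.0392) and -0.81 ± 0.22 (SE, adjusted p = 0.0267). With all 14 arrays none of these 4 passed, with adjusted p from 0.163 to 0.228. The remaining 2 probe sets of Lpcat1 read 2.51 to 3.89 on every array, below the array medians, and on 1420294_at the VILI PBEF+/- mean was above that of PBEF+/- (3.57 against 3.35).

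**Figure D2:**
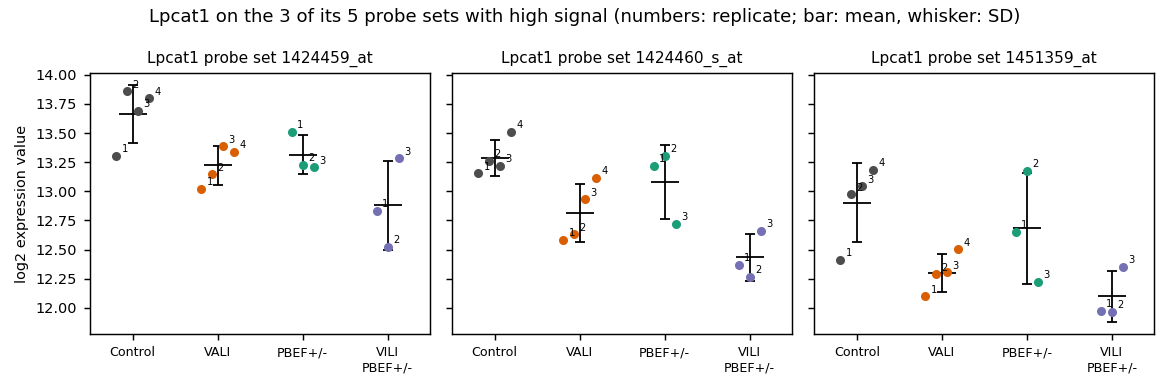
Log2 expression values (y axis) of Lpcat1 on the 3 of its 5 probe sets that lay above the array medians, by group (x axis), with arrays numbered by replicate, means as bars and SD as whiskers. On 1424460_s_at the ventilated arrays lie at 12.27 to 13.11, with VALI wholly below Control and VILI PBEF+/- wholly below PBEF+/-.

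Abca3 encodes the transporter that loads phospholipid into lamellar bodies. It read 12.04, 12.91, 12.75 and 12.70 in Control, 12.25, 12.35, 12.45 and 12.23 in VALI, 12.30, 12.40 and 12.29 in PBEF+/- and 12.06, 12.21 and 12.24 in VILI PBEF+/-. VILI PBEF+/- lay wholly below PBEF+/-, while Control and VALI overlapped through Control replicate 1 alone. VALI against Control was -0.28 ± 0.15 (SE, adjusted p = 0.323), and without Control replicate 1 it was -0.47 ± 0.08 (SE, adjusted p = 0.0846). Another probe set, 1451869_at, at lower signal, read 6.22, 6.74, 6.29 and 6.08 in Control and 5.72, 5.92, 5.86 and 5.16 in VALI. It read 6.06, 6.20 and 5.65 in PBEF+/- and 4.98, 5.06 and 5.66 in VILI PBEF+/-. VALI was wholly below Control there. In the remaining probe set, VALI against Control was -0.28 (95% interval -0.95 to 0.40) and VILI PBEF+/- against PBEF+/- was 0.11 (95% interval -0.67 to 0.89), so the 3 probe sets did not share a direction in the second comparison.

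Napsa encodes napsin A, an aspartic protease that processes the SP-B propeptide. Its Control arrays read 12.22, 13.26, 13.17 and 13.10, and its VALI arrays read 12.96, 13.11, 13.17 and 12.40. PBEF+/- read 12.67, 12.57 and 13.05 and VILI PBEF+/- read 12.91, 13.03 and 13.12. Every pair of groups overlapped. The low arrays were Control replicate 1 and VALI replicate 4. The fold in VALI against Control was 0.981 (95% interval 0.703 to 1.37). A second Napsa probe set read 4.32 to 5.52 on 13 arrays and 8.66 on PBEF+/- replicate 2.

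Slc34a2 encodes the sodium-phosphate cotransporter NaPi-IIb, which takes up phosphate freed when surfactant lipid is broken down. It read 13.04, 13.73, 13.65 and 13.64 in Control, 13.49, 13.57, 13.64 and 13.12 in VALI, 13.31, 13.37 and 13.65 in PBEF+/- and 13.24, 13.36 and 13.53 in VILI PBEF+/-. All groups overlapped. The same 2 arrays were low, Control replicate 1 and VALI replicate 4. The fold in VALI against Control was 0.96 (95% interval 0.76 to 1.21).

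Etv5, an ETS factor downstream of FGF signalling that maintains type II cell identity, had the widest spread within a group. Control read 11.45, 12.62, 12.64 and 12.999, VALI 12.24, 12.44, 12.29 and 11.85, PBEF+/- 11.88, 12.27 and 12.01, and VILI PBEF+/- 11.90, 11.73 and 12.41. The groups overlapped because of Control replicate 1, since the other 3 Control arrays lay above every array of the other groups. VALI against Control was -0.22 ± 0.27 (SE, adjusted p = 0.686) with that array and -0.55 ± 0.18 (SE, adjusted p = 0.197) without it. The other probe sets put Control replicate 1 lower still: 5.07 against 8.11 to 8.23 in the other Control arrays on 1420998_at, and 7.86 against 10.14 to 10.22 on 1450082_s_at.

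In VALI against Control as labelled, 8 of the 9 genes lay below 0, where 58.5% of all genes did, and the median of the 9 was -0.15 against -0.06 for all genes. An unadjusted p under 0.05 was reached by 2 of the 9, Sftpc and Lpcat1, against 18.3% of all genes. The groups did not overlap for 1 of the 9, Sftpc, against 10.7% of all genes. In VILI PBEF+/- against PBEF+/-, 5 of the 9 lay below 0, where 55.5% of all genes did, and 2 of the 9, again Sftpc and Lpcat1, reached an unadjusted p under 0.05, against 20.7% of genes. There 2 of the 9, Sftpc and Abca3, did not overlap, against 19.3% of genes. The shares past an unadjusted p and without overlap were close to the background, while the share below 0 in VALI against Control was above it as labelled. Over the 12 arrays that share was not above it. There 5 of the 9 lay below 0 in VALI against Control, where 60.3% of all genes did, with medians of -0.077 and -0.084. In VILI PBEF+/- against PBEF+/- 4 of the 9 lay below 0 over the 12 arrays, where 56.0% of all genes did.

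In PBEF+/- against Control all 9 genes lay below 0, where 66.7% of all genes did, with a median of -0.17 against -0.09. The lowest value was -0.37 for Etv5. None reached an unadjusted p under 0.05, which 8.26% of all genes did, none of the 9 was without overlap between the groups, against 5.84% of all genes, and the smallest adjusted p was 0.604. In VILI PBEF+/- against VALI, 7 of the 9 lay below 0, where 64.3% of all genes did, with differences from -0.34 for Lpcat1 to 0.11 for Napsa. None of the 9 reached an unadjusted p under 0.05, against 10.5% of all genes, and none was without overlap between the groups, against 14.9%. The 2 ventilation differences were not found to differ from each other for any of the 9 genes, with a smallest adjusted p of 0.904. At an unadjusted p under 0.05 there were 0 of the 9, against 5.58% of all genes, and the 95% intervals of that difference reached from -0.73 to 1.09.

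**Figure D3:**
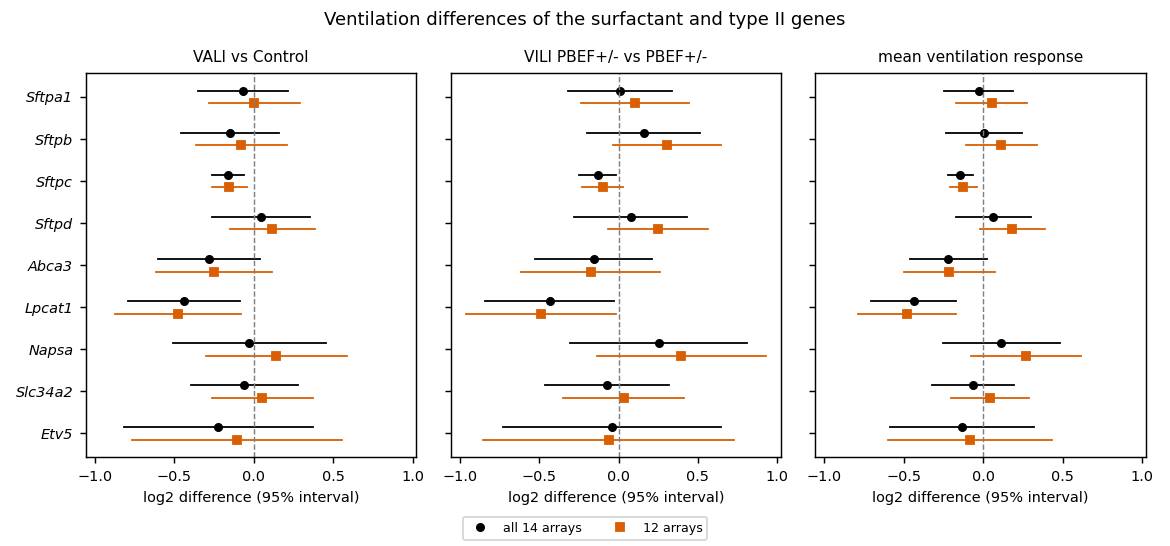
Log2 differences (x axis, with 95% confidence intervals from limma as lines) of the 9 genes (y axis) for VALI against Control, for VILI PBEF+/- against PBEF+/-, and for the mean of both. Black circles use all 14 arrays and orange squares the 12 arrays without VALI replicate 4 and PBEF+/- replicate 3. In the right-hand panel the intervals of Sftpc and Lpcat1 lie below 0, and those of the other 7 genes include 0.

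The mean of both ventilation differences uses all 14 arrays at once and was added after the data had been seen. With it 2 of the 9 genes were called, against 8.36% of all genes. Sftpc fell by 0.15 on the log2 scale (SE 0.04, fold 0.903, adjusted p = 0.0372). Lpcat1 fell by 0.44 (SE 0.12, fold 0.739, 95% interval 0.614 to 0.889, adjusted p = 0.0484). With 12 arrays the same 2 genes were called, against 39.5% of all genes, at -0.13 (adjusted p = 0.024) and -0.48 (adjusted p = 0.0188). Both calls lay close to the threshold. Over 22 other settings, Lpcat1 was called in 8 (adjusted p 0.0188 to 0.129, difference -0.54 to -0.32) and Sftpc in 6 (adjusted p 0.0214 to 0.594, difference -0.16 to -0.09). Leaving out 1 array at a time kept the call in 4 of 14 cases for Lpcat1 and in 3 of 14 for Sftpc. With the sex pattern as a covariate the adjusted p was 0.0807 for Lpcat1 and 0.0691 for Sftpc. With quantile normalization Sftpc was at -0.09 (adjusted p = 0.146) and Lpcat1 at -0.48 (adjusted p = 0.0406).

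Fitted probe set by probe set, 4 of the 18 tested probe sets of the 9 genes were called for the mean of both ventilation differences, against 4.55% of the 23168 probe sets tested. They belonged to 3 genes, and probe sets of a gene are not independent. For Lpcat1 these were 1424460_s_at at -0.56 ± 0.12 (SE, adjusted p = 0.0371) and 1451359_at at -0.59 ± 0.15 (SE, adjusted p = 0.0492), and for Abca3 it was 1451869_at at -0.70 ± 0.17 (SE, adjusted p = 0.0458). The Sftpc probe set already described was the remaining one. With 12 arrays 5 of the 18 were called, again of 3 genes, against 31.8% of all probe sets. Lpcat1 1424460_s_at then read -0.70 ± 0.09 (SE, adjusted p = 0.000389) and Abca3 1451869_at -0.69 ± 0.16 (SE, adjusted p = 0.00783).

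Control replicate 1 was the lowest Control array for 8 of the 9 genes, against 43.3% of all genes for which that array was lowest. VALI replicate 4 was the lowest VALI array for 7 of the 9, against 27.1% of all genes. The exception in Control was Sftpc, for which Control replicate 1 was the second highest of the 4. In Control replicate 1 the deviation of other type II cell genes from their own 14-array means averaged -0.42, against 0.26 to 0.29 in the other Control arrays, and that of 10 macrophage markers averaged -1.09, against -0.40 to 0.09. Alveolar type I markers averaged 0.37 there, against 0.07 to 0.26. The part of cell composition, dissection or RNA quality in this array was not tested. Without Control replicate 1, the mean of both ventilation differences was -0.50 for Lpcat1 (adjusted p = 0.0485). It was -0.31 for Abca3 (adjusted p = 0.0444) and -0.14 for Sftpc (adjusted p = 0.0572). The array was singled out by its low values in these genes. Over the fits without 1 array, 0 to 3419 of the 11360 genes were called for this mean.

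**Figure D4:**
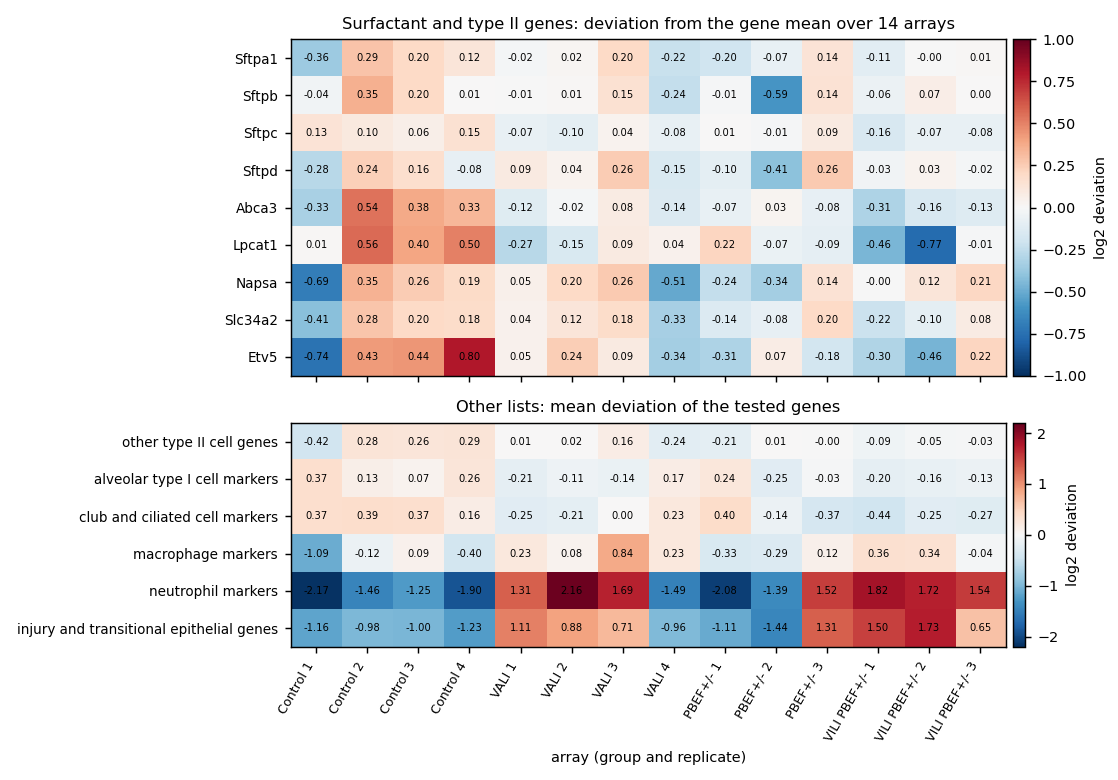
Deviation on the log2 scale from the mean over 14 arrays (colour and printed number) for the 9 genes (upper panel) and averaged over the tested genes of 6 other lists (lower panel, with a wider colour range), by array (x axis). Control replicate 1 is low in most rows of the upper panel, and the neutrophil and injury rows are high in the ventilated arrays and in PBEF+/- replicate 3 but not in VALI replicate 4.

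Genes around surfactant were read from lists chosen with earlier results of these data known. As labelled, limma called 0 genes of any list in the 5 comparisons of the design. At an unadjusted p under 0.05, 18.3% of all genes passed in VALI against Control. The counts there were 4 of 20 other type II cell genes, 6 of 17 regulators of surfactant genes and 6 of 13 FGF pathway genes. Lipid synthesis had 2 of 19, lamellar body transport 2 of 19 and secretion and clearance 5 of 12. Injury genes came to 7 of 11, neutrophil markers to 7 of 10, macrophage to 6 of 10, type I to 5 of 11 and club and ciliated to 6 of 10. Endothelial markers came to 4 of 10, fibroblast to 1 of 8 and muscle to 1 of 8. For the mean of both ventilation differences over all 14 arrays, the calls came to 1 of 20 other type II cell genes, 3 of the 17 regulators, 4 of the 13 FGF pathway genes, 5 of the 11 injury genes and 5 of the 10 neutrophil markers, where 8.36% of all genes were called. They came to 1 of 19 genes of lipid synthesis, 0 of 19 of lamellar body transport and 4 of 12 of secretion and clearance. Among other cells they came to 2 of 11 type I, 5 of 10 club and ciliated, 2 of 10 macrophage, 1 of 10 endothelial, 1 of 8 fibroblast and 1 of 8 muscle markers. The lists are described over 12 arrays in what follows, with the median difference of all genes at -0.08 in VALI against Control and -0.07 in VILI PBEF+/- against PBEF+/-. Where more than 4 genes of a list were called, at most the 4 with the smallest p are named for that comparison. A gene given for 1 comparison may then have been called in the other too. For the other type II cell genes, 20 of 22 were tested with medians of -0.06 and -0.03, and in each ventilation comparison 1 rose and 1 fell, where 17% and 26.4% of all genes were called. Il33, an alarmin kept in type II cell nuclei, rose by 1.003 ± 0.28 (SE, adjusted p = 0.0302) in VALI and by 1.55 ± 0.33 (SE, adjusted p = 0.00708) in VILI PBEF+/-. Cbr2, a carbonyl reductase of lung epithelium, differed by -0.29 ± 0.07 (SE, adjusted p = 0.0205) and -0.26 ± 0.09 (SE, adjusted p = 0.0499). Cxcl15, a chemokine of lung epithelium, read 13.83 in Control replicate 1 and 14.13 in VALI replicate 4, and 14.89 to 14.93 in the other Control arrays.

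The regulators of surfactant genes were read next. Of 17 tested transcription factors, 2 rose and 5 fell in VALI against Control over 12 arrays, where 17% of all genes were called. In VILI PBEF+/- against PBEF+/-, 5 rose and 4 fell, where 26.4% of all genes were called. The medians were -0.16 and 0.13. The mean deviation of the list was 0.05 and -0.41 in PBEF+/- replicates 1 and 2. Foxa2, a forkhead factor that drives surfactant genes, read 10.66 to 11.00 in Control and 9.59, 9.82 and 9.95 in VALI replicates 1 to 3, with 10.82 in VALI replicate 4. Its differences were -1.02 ± 0.15 (SE, adjusted p = 0.00158) and -1.42 ± 0.18 (SE, adjusted p = 0.00042). Elf5, an ETS factor of distal lung epithelium, fell by 1.44 and by 2.40 (adjusted p = 0.00239 and 0.000236). Foxa1 fell by 0.60 in VALI (adjusted p = 0.00938). Klf5, a factor of epithelial growth and lipid genes, rose by 0.69 and 1.21 (adjusted p = 0.00487 and 0.000388). Cebpd, an acute-phase factor, rose by 1.89 in VILI PBEF+/- (adjusted p = 0.00093). In VALI it read 13.91, 13.75, 13.96 and 12.43, against 12.38 to 13.11 in Control. Nkx2-1, the lineage factor of lung epithelium, read 5.67 to 7.01 in Control and 5.42 to 6.27 in VALI and was not called in either comparison. Its differences over 12 arrays were -0.86 ± 0.30 (SE, adjusted p = 0.0674) and -0.13 ± 0.35 (SE, adjusted p = 0.808).

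Etv5 lies downstream of FGF receptors and ERK, and other genes of that pathway were called over 12 arrays. Etv5 itself was not, and whether it differed from them was not tested. Of 13 tested genes, 2 rose and 5 fell in VALI against Control, where 17% of all genes were called. In VILI PBEF+/- against PBEF+/-, 6 rose and 4 fell, where 26.4% of all genes were called. The medians were 0.05 and 0.35. The ligand gene Fgf18 fell by 2.17 and 1.66 (adjusted p = 0.00121 and 0.00845). Fgf7, the fibroblast ligand for type II cells, fell by 0.72 and 0.87 (adjusted p = 0.00651 and 0.00421). Spry4, a feedback inhibitor of the pathway, rose by 1.71 and 1.87 (adjusted p = 0.00337 and 0.00403). The ERK phosphatase gene Dusp6 rose by 1.59 in VILI PBEF+/- (adjusted p = 0.00242). Dusp6 read 12.44 and 11.39 in PBEF+/- replicates 1 and 2, against 12.08 to 12.59 in Control. Il17rd, another inhibitor, fell by 1.06 in VALI (adjusted p = 0.00941). Etv5 differed by -0.11 (95% interval -0.77 to 0.55) and -0.06 (95% interval -0.85 to 0.73) over the same arrays.

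Surfactant lipid supply, storage and turnover were read against the same shares of all genes, 17% in VALI against Control and 26.4% in VILI PBEF+/- against PBEF+/-. Of 19 tested genes of phospholipid and fatty acid synthesis, 1 rose in VALI and 3 in VILI PBEF+/-, and 0 fell, with medians of 0.05 and 0.35. Slc2a1, a glucose transporter, was at 1.67 and 2.02 (adjusted p = 0.000366 and 0.000248). In VILI PBEF+/-, Chka, a choline kinase, was at 1.28 (adjusted p = 0.00118). Pgs1, of phosphatidylglycerol synthesis, was at 0.92 there (adjusted p = 0.00216). Chka read 9.85 and 9.22 in PBEF+/- replicates 1 and 2, against 10.02 to 10.43 in Control. The mean deviation of the list was -0.04 and -0.44 in these 2 PBEF+/- arrays. Of 19 genes of lamellar body transport and propeptide processing, 2 fell in VALI (median -0.14), Stx2 by 0.68 (adjusted p = 0.0225) and Rab3d, a small GTPase of secretory granules, by 0.56 (adjusted p = 0.0448). Rab3d fell by 0.83 (adjusted p = 0.0131) in VILI PBEF+/- as well, and Anxa7, an annexin of lamellar body fusion, rose by 0.49 (adjusted p = 0.00579), with a median of -0.04 over the list. Of 12 genes of secretion, uptake and clearance, 3 rose and 1 fell in VALI and 4 rose in VILI PBEF+/-, with medians of 0.15 and 0.22. Csf2rb, the shared chain of the GM-CSF receptor, which alveolar macrophages need to clear surfactant, rose by 1.24 and 1.14 (adjusted p = 0.00286 and 0.00774). P2ry2, the ATP receptor that triggers secretion, rose by 0.91 and 1.23 (adjusted p = 0.0372 and 0.0164), and Adgrf5, a receptor that restrains the surfactant pool, fell by 0.33 in VALI (adjusted p = 0.0188).

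Genes of injured and transitional alveolar epithelium rose over the 12 arrays. As labelled, 0 of the list were called in either ventilation comparison. Of 11 tested, 6 rose in VALI and 8 in VILI PBEF+/- over 12 arrays, and 0 fell, with medians of 1.43 and 2.02. The shares of all genes called in these 2 comparisons were 17% and 26.4%. Cldn4, a tight junction gene, read 2.54 to 3.20 in Control. It read 9.05, 9.93 and 9.13 in VALI replicates 1 to 3, with 3.095 in VALI replicate 4. PBEF+/- read 3.14, 3.22 and 10.37. Cldn4 thus went with Il6 in the 2 arrays left out, so its p-values depend on that choice. Its differences were 6.44 ± 0.40 (SE, adjusted p = 3.7e-06) and 6.03 ± 0.48 (SE, adjusted p = 2e-05). Sfn rose by 4.65 and 5.93 (adjusted p = 2.5e-05 and 1.4e-05), and the keratin gene Krt18 by 1.69 and 2.02 (adjusted p = 0.000162 and 0.000122). Krt8, its partner, rose by 2.25 in VILI PBEF+/- (adjusted p = 0.00026), and Lgals3 by 0.91 in VALI (adjusted p = 0.00035).

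Markers of other cells were read beside the type II genes, and their part in the differences of the 9 genes was not tested. Of all genes, 17% were called in VALI against Control over 12 arrays and 26.4% in VILI PBEF+/- against PBEF+/-. Over 12 arrays, 8 of 10 neutrophil markers rose in each ventilation comparison. Their mean deviation ran from -2.17 to -1.25 in Control and was 1.31, 2.16, 1.69 and -1.49 in VALI. It was -2.08, -1.39 and 1.52 in PBEF+/- and 1.54 to 1.82 in VILI PBEF+/-. Of 10 macrophage markers 2 rose in each comparison. Of 11 alveolar type I markers 7 fell in VALI and 4 in VILI PBEF+/-, with medians of -0.34 and -0.15, among them Rtkn2 by 1.16 and 0.97 (adjusted p = 0.0128 and 0.0416) and Akap5 by 0.54 and 0.64 (adjusted p = 0.0155 and 0.0115). Of 10 club and ciliated cell markers 6 and 5 fell, among them Cyp2f2, a club cell cytochrome, by 0.59 and 0.65 (adjusted p = 0.00114 and 0.00125). Endothelial markers fell in 4 and 3 of 10, fibroblast markers in 2 and 1 of 8, and of 8 heart and skeletal muscle markers 1 rose in VALI, and 1 rose and 1 fell in VILI PBEF+/-. The macrophage, fibroblast and muscle counts lay near the shares of all genes, as did the endothelial count in VILI PBEF+/-. In the same 2 comparisons 0 of the 9 surfactant and type II genes were called. Whether the 9 genes differed from these lists was not tested.

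The profile of Lpcat1 over the 14 arrays was set against all other tested genes by the root mean square difference of centred log2 values. The nearest were Vps26b at 0.104, Tor4a at 0.109, Dguok at 0.118, Casp2 at 0.129 and Ttc33 at 0.129.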

How the data were processed

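Total RNA from mouse lung was extracted with Trizol and 6 µg was labelled with biotin for Affymetrix arrays, per the labels' protocols. The authors deposited 1 log2 expression value for each of 45101 probe sets on each of 14 arrays. MAS5 and GCRMA stand in the submitters' processing notes with neither role nor version, and the deposited log2 values were used with no further scaling. In the platform annotation 34958 probe sets carried 1 gene symbol, 932 several and 9211 none. Entrez identifiers of 34754 matched the reference, and 0 symbols changed.

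Groups came from the sample titles. All tested genes on all 14 arrays entered 1 linear model of the 4 groups (limma 3.58.1, R 4.3.3; lmFit, then eBayes with trend). P-values were adjusted by Benjamini-Hochberg over the 11360 genes tested, and an adjusted p under 0.05 counted as a call. Each ± after a difference is the model's standard error, each 95% interval a confidence interval of the model, and each ± after a group mean an SD. The script was tested on simulated data. Promoters were read with Python 3.11.15 and figures drawn with matplotlib 3.10.9.

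The genes and lists were chosen with earlier results of these data known. Named were all 10 genes of the surfactant set, up to 4 called genes of each other list with the smallest p per comparison, and the 5 genes most like the one with the widest span of group means. Nkx2-1 and Cxcl15 were named after their values were seen. Of 19 pairs of arrays with the same number in different groups, 7 deviated together with a correlation over 0.1 (range -0.35 to 0.32). Pairs with different numbers were not set beside them, so this does not settle whether numbers paired arrays. The titles do not state a pairing. Other filters, probe set rules, normalization, a replicate block, the groups compared alone and arrays left out were tried as well. The single probe sets, the mean of both ventilation differences and the sex covariate were added after the data were seen.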

Additional observations from a re-analysis of the deposited data

Results flagged for a closer look

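In Control, Napsa and Slc34a2 each had 1 array far from the other 3, with a gap of 0.851 and 0.859 of the group's whole range, past Dixon's 95% critical value for 4 samples. Both times the array was Control replicate 1, which read 12.22 for Napsa and 13.04 for Slc34a2. Chance places about 1 in 20 groups past this value, and over all tested genes 8.29% were past it in Control and 8.85% in VALI.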

How the results depend on the processing

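Over 47 differences of the 9 genes and 23 other settings, 1025 values were computed, of which 930 kept their direction and their side of the threshold and 65 took another sign. The largest reported difference that changed sign was 0.28 in size, and 14 of the values were called, all for the mean of both ventilation differences. The cause of each change was not tested.

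With the mean of all probe sets per gene, which adds probe sets of low signal, the log2 difference in PBEF+/- against Control became 0.44 for Napsa. In VILI PBEF+/- against PBEF+/- it became 0.013 for Sftpc, -0.40 for Napsa and 0.27 for Etv5, and in VILI PBEF+/- against VALI it became 0.0033 for Sftpc and 0.019 for Etv5. The interaction of Napsa became -0.22, and 2 genes in VALI against Control and 1 in VILI PBEF+/- against PBEF+/- were called. Quantile normalization turned the interaction of Sftpd to -0.0061 and of Lpcat1 to -0.0081. With the 12 arrays, VALI against Control became 0.0038 for Sftpa1, 0.14 for Napsa and 0.052 for Slc34a2, and VILI PBEF+/- against PBEF+/- became 0.031 for Slc34a2. VILI PBEF+/- against VALI became -0.049 for Sftpb and -0.062 for Napsa, and the interaction of Lpcat1 became -0.010. In that setting 1933, 3003 and 13 genes were called in VALI against Control, VILI PBEF+/- against PBEF+/- and VILI PBEF+/- against VALI, and 4485 for the mean of both ventilation differences. Fitting only the groups compared called 27 genes in VALI against Control and 1 in VILI PBEF+/- against VALI.

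For the mean of both ventilation differences, 950 genes and 2 of the 9 were called. The 9 gave 1 call with the mean of probe sets and 1 with quantile normalization, both times Lpcat1 and not Sftpc. They gave 0 with no filter, with no variance trend and with the sex covariate. All genes gave 99 calls with no filter and 0 with the sex covariate. Over 12 arrays with probe sets fitted singly, 1 of the 9 was called in VALI against Control (Lpcat1, by 2 of 18 probe sets, against 12% of all probe sets) and 2 in VILI PBEF+/- against PBEF+/- (Lpcat1 and Abca3, by 3 of 18, against 19.7%).

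A replicate block turned Sftpb in VILI PBEF+/- against VALI to -0.034 and left 1 of the 9 called for the mean of both ventilation differences (Sftpc, adjusted p = 0.0465, with Lpcat1 at 0.053), among 969 genes. It left the counts of the other 5 comparisons at 0. The arrays share only a number.

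Leaving out 1 array at a time called 0 to 680 genes in VALI against Control (the highest without VALI replicate 4), 0 to 2157 in VILI PBEF+/- against PBEF+/- and 0 to 3419 for the mean of both (both highest without PBEF+/- replicate 3), and 0 to 9 in VILI PBEF+/- against VALI (the highest without VILI PBEF+/- replicate 3). Of the 9 genes, 0 to 2 were called for the mean of both. In VALI against Control the differences ran from -0.21 to 0.0064 for Sftpa1, from -0.048 to 0.12 for Sftpd, from -0.27 to 0.14 for Napsa and from -0.22 to 0.052 for Slc34a2. In PBEF+/- against Control they ran from -0.26 to 0.073 for Sftpd and from -0.23 to 0.0031 for Slc34a2. In VILI PBEF+/- against PBEF+/- they ran from -0.066 to 0.10 for Sftpa1, from -0.063 to 0.30 for Sftpb, from -0.086 to 0.25 for Sftpd, from -0.15 to 0.031 for Slc34a2 and from -0.24 to 0.099 for Etv5. The differences in VILI PBEF+/- against VALI ran from -0.099 to 0.042 for Sftpa1, from -0.049 to 0.081 for Sftpb, from -0.13 to 0.0053 for Sftpd and from -0.062 to 0.19 for Napsa. The interaction ran from -0.13 to 0.20 for Sftpd, from -0.20 to 0.18 for Lpcat1, from -0.12 to 0.15 for Slc34a2 and from -0.018 to 0.51 for Etv5.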

Other observations

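The probe set that Lamp3, a lamellar body membrane protein, shares with Ppid, a cyclophilin, read 13.18, 14.19, 14.24 and 14.24 in Control and 14.18, 14.23, 14.10 and 13.41 in VALI. It read 13.58, 13.98 and 13.93 in PBEF+/- and 14.09, 14.15 and 14.24 in VILI PBEF+/-. Control replicate 1 and VALI replicate 4 were the low arrays, and every VILI PBEF+/- array lay above every PBEF+/- array. Signal of Lamp3 and Ppid cannot be told apart on it, and it was not tested as either gene.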
